A study of Homo sapiens with 3 samples.

Results

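The 10 genes ATM, ATR, CHEK1, CHEK2, WEE1, TP53BP1, MDC1, RAD17, CLSPN and TOPBP1 encode kinases and mediators of the DNA damage checkpoint. They were taken by name, as all probe sets whose platform annotation gave a single gene symbol from this set, which came to 30 probe sets for 10 of the 19775 genes measured. RNA came from KYSE140, an established human oesophageal squamous carcinoma line grown in RPMI with serum, and was hybridised to 3 Affymetrix arrays. The 1 untreated array had no drug, and the 2 cisplatin arrays (B1 and B2) came from cells given cisplatin, which forms platinum crosslinks in DNA, for 12 h at 10 mM as the labels state. Culture experiments usually use micromolar cisplatin, so the unit may be an error of the labels. The labels do not say whether B1 and B2 were separate cultures, so every p-value covers no more than the spread of these samples, possibly a technical one.

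Checkpoint signalling stops the cell cycle while DNA is damaged or unreplicated. ATM responds mainly to double-strand breaks and passes the signal to CHEK2, whereas ATR responds to single-stranded DNA at stalled forks and passes it to CHEK1. RAD17 loads the 9-1-1 clamp, TOPBP1 then activates ATR, and CLSPN (claspin) brings CHEK1 to it, while MDC1 and TP53BP1 assemble on chromatin around breaks. WEE1 holds CDK1 inactive by phosphorylation. Most of this control acts on proteins, by phosphorylation and degradation, and the arrays measure RNA only.

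The stretches just upstream of 3 of the genes are shown because their results differ most in kind: ATR lower in both cisplatin arrays, CHEK2 low in B2 only, and ATM read differently by its probe sets. The sequences are RefSeq's on GRCh38.p14, each written on the gene's own strand and ending at the base before its first annotated base. The CHEK2 stretch runs from the base before the first annotated base of CHEK2 to that before the first of HSCB, a gene on the opposite strand. Capitals mark CCAAT or its reverse complement ATTGG.
ATM, chr11:108222817-108223066, plus strand: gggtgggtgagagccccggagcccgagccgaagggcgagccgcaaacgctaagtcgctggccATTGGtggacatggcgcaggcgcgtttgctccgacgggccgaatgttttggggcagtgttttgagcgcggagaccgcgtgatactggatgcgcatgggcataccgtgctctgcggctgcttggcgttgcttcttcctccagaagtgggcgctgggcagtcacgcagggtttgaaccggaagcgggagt
ATR, chr3:142578734-142578983, minus strand: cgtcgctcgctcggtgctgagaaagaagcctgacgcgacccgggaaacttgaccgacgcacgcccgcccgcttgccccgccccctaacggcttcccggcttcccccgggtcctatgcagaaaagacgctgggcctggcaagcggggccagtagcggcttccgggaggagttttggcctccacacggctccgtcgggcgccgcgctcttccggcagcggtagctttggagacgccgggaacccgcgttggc
CHEK2, chr22:28741835-28742031, minus strand: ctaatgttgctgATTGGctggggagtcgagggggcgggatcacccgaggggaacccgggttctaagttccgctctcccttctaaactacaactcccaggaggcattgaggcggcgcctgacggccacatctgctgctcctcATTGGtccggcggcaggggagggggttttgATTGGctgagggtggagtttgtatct

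The CHEK2 stretch held 3 copies of the box, ATM 1 and ATR 0. The same search was made on both strands of windows of 300 bases, 250 before and 50 after a gene's outermost start, which the RefSeq table gave for 9 of the 10 genes and not for WEE1. CCAAT was in 6 of the 9 windows, against 35.7% of all 27305 windows and 36.1% of the 15384 windows of measured genes. An exact E2F-type word (TTTCCCGC, TTTGGCGC, TTTGCCGC or TTTCGCGC) was in the windows of CLSPN and TOPBP1, 2 of 9 against 3.34% of all. TTTGAA was in 2 of 9 (15.5% of all, 12.0% for measured genes) and TATAAA in 0 of 9 (12.0% of all, 8.86% for measured genes). The median GC content was 64.3% for the 9 windows and 58.3% for all. These matches describe the letters of the windows only.

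No gene of the 10 differed from the untreated array by 2-fold in both cisplatin arrays, but all 10 were lower in both by some amount on their brightest probe set (9 with median centring, 8 with quantile normalization, 7 with the mean of all probe sets and 6 with the span trend described below removed). Of all genes 27.4% were lower in both arrays and 39.2% higher. Among the 10209 genes whose mean log2 value was 6 or more, a level that 9 of the 10 reached, 34.2% were lower and 29.8% higher. The median log2 difference of the 10 was -0.15 in B1 and -0.34 in B2, beside 0.03 and 0.05 for all genes. The differences were small: leaving CHEK2 aside, they ran from -0.41 to 0.00 in B1 and from -0.43 to -0.07 in B2. Both differences of a gene share the untreated array, so a shift of that value moves both.

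None of the 10 passed limma's test, in which 0 of 19775 genes (0%) passed at an adjusted p of 0.05. At an unadjusted p under 0.05 there were 565 genes (2.86%) and 0 of the 10. On simulated data with known changes the same fit called none of the changed genes, so a count of 0 says nothing about the size of the response. With a lone untreated array the standard error (SE) of a gene draws on how far B1 and B2 lie apart and on a spread pooled over genes, and the interval of each difference was wide. At least 2-fold lower in both arrays were 0.678% of genes, and at least 2-fold higher were 0.142%. The cisplatin arrays also differed from each other: their log2 difference had an SD of 0.56 over all genes, beside 0.33 for B1 minus untreated and 0.60 for B2 minus untreated.

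**Figure D1:**
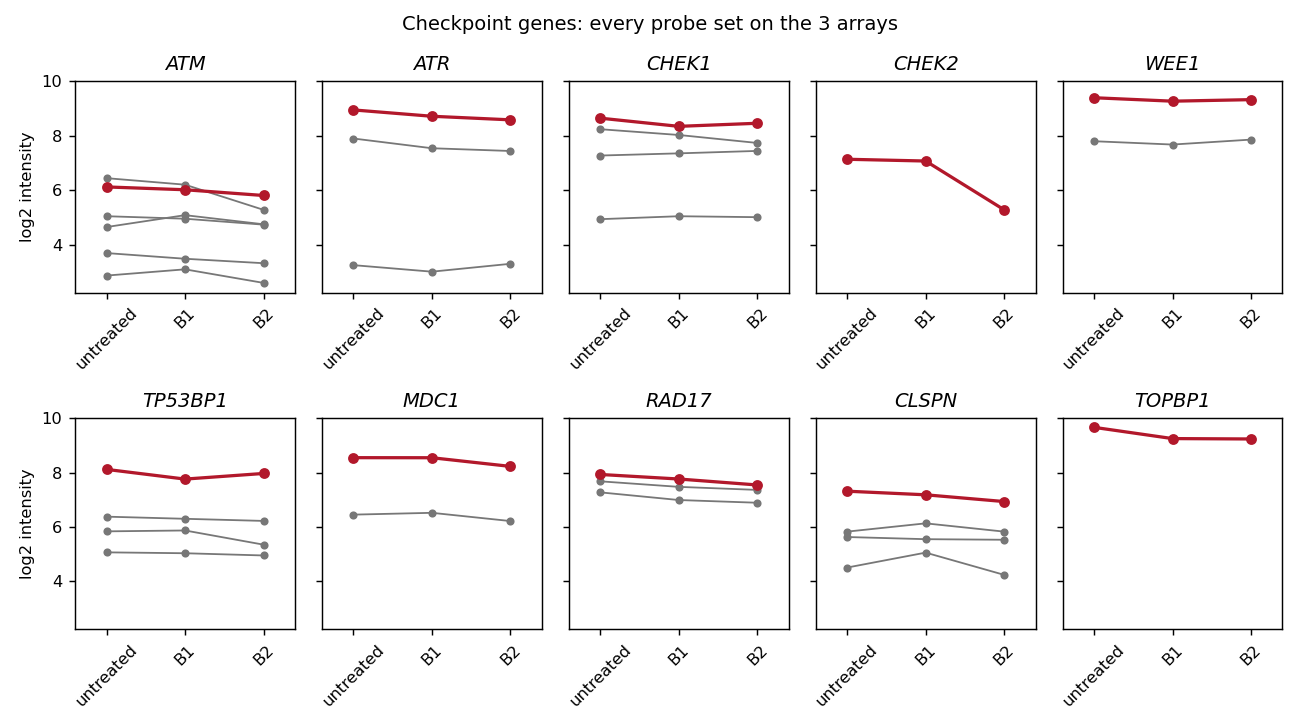
Log2 intensity (vertical axis) of each of the 30 probe sets on the untreated, B1 and B2 arrays, 1 panel a gene and 1 line a probe set, with the probe set of highest mean in red and the others in grey. Most lines are nearly level, and CHEK2 stands out by its low value in B2 alone. Heights of different probe sets cannot be compared.

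ATR, the apical kinase of the replication checkpoint, read lower on its brighter probe sets. Its brightest, 209903_s_at, had an intensity of 495 untreated, 421 in B1 and 384 in B2. The next, 209902_at, had 239, 187 and 174. Both probe sets thus put both cisplatin arrays below the untreated one, and B2 lowest. The log2 differences of the brightest were -0.23 and -0.36, a mean of -0.30 (SE 0.20, 95% interval -0.92 to 0.32, limma adjusted p = 0.97). The other ATR probe set, 233288_at, was dim (9.52, 8.06 and 9.85) and gave differences of opposite sign.

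TOPBP1, the activator of ATR, had the largest mean difference after CHEK2 on the brightest probe sets (with plain _at probe sets preferred, ATM was at -0.70) and the closest pair of cisplatin values. Its only probe set read 808 untreated, 607 in B1 and 601 in B2, or 75.1% and 74.4% of untreated. The cisplatin arrays lay next to each other (SD 0.01 on the log2 scale) and both below the untreated one. The mean log2 difference was -0.42 (SE 0.18, 95% interval -1.004 to 0.165, limma adjusted p = 0.97). On the brightest probe sets TOPBP1 was the only one of the 10 at least 1.2-fold lower in both arrays, as were 8.40% of all genes. Dimmer probe sets of ATR (209902_at, 78.1% and 72.8% of untreated) and RAD17 (211228_s_at, 82.3% and 76.8%) were also that low in both. By its mean difference 10.4% of all genes were as low or lower.

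RAD17, the clamp loader subunit, was lower on every one of its 3 probe sets. The brightest, 207405_s_at, read 244 untreated, 217 in B1 and 186 in B2. The other probe sets read 205, 178 and 164 (210826_x_at) and 154, 127 and 119 (211228_s_at). On each of them the untreated array was highest and B2 lowest. The mean log2 difference of the brightest was -0.28 (SE 0.21, limma adjusted p = 0.97). The annotation lists 2 RAD17 pseudogenes, and whether the probes also read such copies was not tested.

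CLSPN, the adaptor between ATR and CHEK1, did not give the same picture on all of its probe sets. The brightest, 243840_at, read 159 untreated, 145 in B1 and 122 in B2, a mean log2 difference of -0.26 (SE 0.22). The dimmer 1553120_at read 49.6, 46.9 and 46.2, also lower in both. By contrast 219621_at read 56.9, 70.2 and 56.9, and 242150_at read 22.8, 33.3 and 18.9, so B1 was highest on both of these. Averaged over its 4 probe sets the CLSPN difference was -0.01.

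CHEK1, the effector kinase of the ATR branch, split by probe set. The brightest, 205394_at, read 401 untreated, 326 in B1 and 352 in B2, and 238075_at read 303, 261 and 213. On 205393_s_at the untreated array was instead the lowest, with 155 untreated, 164 in B1 and 174 in B2. The dim 229423_at read 30.7, 33.1 and 32.3. So 2 of the 4 probe sets were lower in both cisplatin arrays and 2 higher. The log2 difference was -0.24 on the brightest (SE 0.19, limma adjusted p = 0.97) and -0.10 over all 4, so the direction of CHEK1 depends on the probe set read.

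CHEK2, the effector kinase of the ATM branch, was the only gene of the 10 with a 2-fold difference on its brightest probe set, and only in B2. Its single probe set, 210416_s_at, read 141 untreated, 135 in B1 and 38.9 in B2. B1 was therefore at 95.6% of untreated and B2 at 27.6%. The log2 differences were -0.06 (0.04 with quantile normalization) and -1.86, and the SD of the cisplatin pair was 1.27. At least 2-fold below untreated in B2 were 4.50% of all genes, and in B1 1.51%. B2 minus B1 was -1.79 on the log2 scale, a value as low as which 0.930% of all genes had, while 2.91% lay at least 2-fold below B1. The mean difference of -0.96 had an SE of 0.91 and a 95% interval from -3.86 to 1.94 (limma adjusted p = 0.97), so it rests on B2 alone. The annotation lists 6 CHEK2 pseudogenes, and whether this probe set also reads such copies was not tested.

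HSCB, which encodes an iron-sulphur cluster co-chaperone, starts on the opposite strand at the far end of the CHEK2 stretch shown above. Its probe set read 323 untreated, 378 in B1 and 326 in B2. HSCB in B2 was thus next to its untreated value (log2 difference 0.01), whereas CHEK2 was at -1.86. No test of the difference between the neighbours was made.

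**Figure D2:**
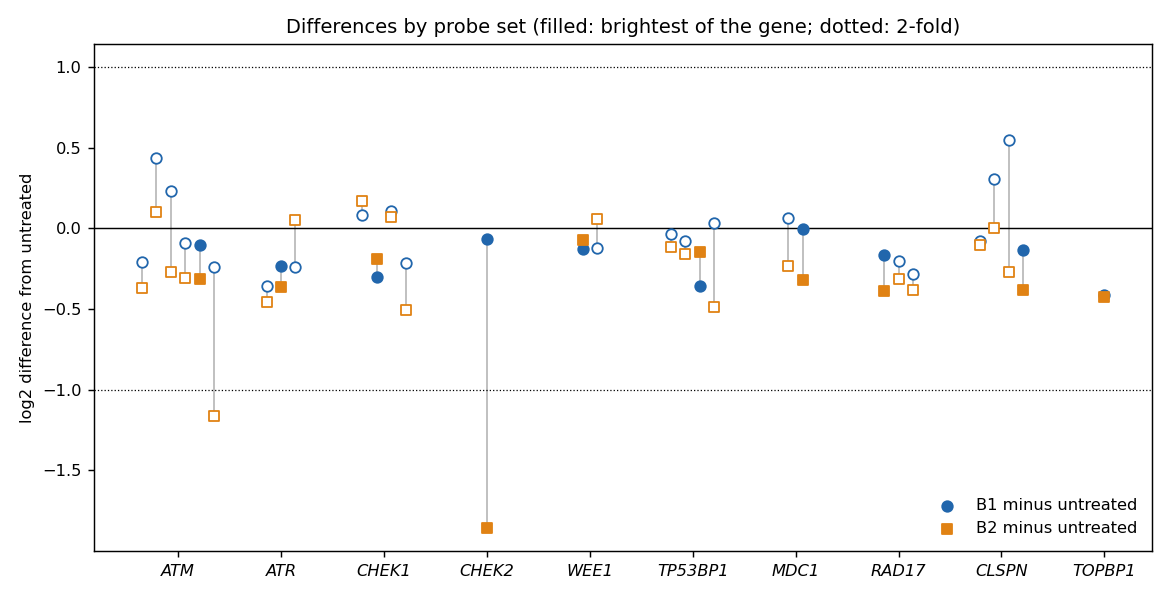
Log2 difference from the untreated array (vertical axis) for B1 (circles) and B2 (squares) on each of the 30 probe sets, grouped by gene, with filled symbols for the brightest probe set and dotted lines at 2-fold. CHEK2 at -1.86 and ATM probe set 212672_at at -1.16, both in B2, are the only points past 2-fold.

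ATM, the apical kinase of the double-strand break response, had 6 probe sets, most of them dim. The probe set of highest mean, 210858_x_at, read 69.7 untreated, 64.9 in B1 and 56.1 in B2, a mean log2 difference of -0.21 (SE 0.21, limma adjusted p = 0.97). Almost as bright was 212672_at, with 87.1, 73.8 and 38.9, where the B2 difference was -1.16 in place of -0.31. Both put the untreated array highest and B2 lowest, but the size of the B2 difference was not the same. Of the dim probe sets 208442_s_at (33.1, 31.0 and 26.7) and 1553387_at (12.9, 11.2 and 10.0) had the same order. The probe set 1554631_at read 25.1, 33.98 and 26.9, higher in both cisplatin arrays, and 1570352_at was mixed. NPAT, a histone gene activator that starts 429 bases from ATM on the opposite strand, read 229 untreated, 160 in B1 and 125 in B2 on its brightest probe set, or -0.52 and -0.87. NPAT was lower on 2 of its 3 probe sets.

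TP53BP1, which steers breaks towards end joining, was lower on 3 of 4 probe sets. The brightest, 203050_at, read 277 untreated, 217 in B1 and 250 in B2, the only one of the 4 with B1 below B2. Its log2 differences were -0.36 and -0.15 (mean -0.25, SE 0.21, limma adjusted p = 0.97). On 213266_at it was B2 that was low, at 57.2, 58.6 and 40.8. The remaining probe sets differed by -0.03 to -0.16. MDC1, the scaffold that binds phosphorylated H2AX, read 373 untreated, 373 in B1 and 299 in B2 on its brightest probe set. B2 was the low array (-0.32 on the log2 scale, against 0.00 in B1), and on its other probe set too, which read 87.6, 91.8 and 74.4. The sign of MDC1 in B1 turned positive with median centring and with quantile normalization.

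WEE1, the inhibitory kinase of CDK1, had the smallest mean difference of the 10 on the brightest probe set, although MDC1 was nearer untreated in B1 and CLSPN on the mean of all probe sets. Its brightest probe set read 675 untreated, 618 in B1 and 643 in B2, or 91.6% and 95.3% of untreated. The other read 223, 205 and 232, with B2 above the untreated array. The mean log2 difference on the brightest was -0.10 (SE 0.19, 95% interval -0.69 to 0.49, limma adjusted p = 0.97).

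Over all 30 probe sets 20 were lower in both cisplatin arrays, 3 higher and 7 mixed, beside 28.9% lower among all probe sets with 1 symbol. Of the 17 whose mean log2 value was 6 or more, 14 were lower and 1 higher (35.5% of all such probe sets were lower). Of the 13 dimmer ones 6 were lower and 2 higher. Probe sets of a gene read the same RNA and are not separate measurements of the treatment.

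The genes of the 10 differ in genomic span, the length of DNA between the ends of the annotated gene, and long genes were lower in these arrays in general. When genes at a mean log2 value of 6 or more were ordered by span into 10 bins, 72.6% of the longest bin were lower in both arrays and 14.7% of the shortest. ATM (146 kb) belonged by its span to that longest bin, where the median difference was -0.53 in B1 and -0.43 in B2. Its brightest probe set, at -0.10 and -0.31, was nearer 0 than these medians. Almost as bright, 212672_at of ATM was at -0.24 in B1 and -1.16 in B2, so in B2 it lay further down than the median. ATR (129 kb) and TP53BP1 (108 kb) belonged to the ninth bin, with medians of -0.30 and -0.31 and 65.1% lower in both. TOPBP1 (61.7 kb) was in the eighth bin (54.6% lower in both) and lay further down than its medians of -0.16 and -0.16. CHEK1, CHEK2, RAD17 and CLSPN (45.5 to 56.0 kb) were in the seventh (42.1% lower in both, medians -0.07 and -0.07), and WEE1 and MDC1 (16.3 and 17.5 kb) in the fourth (17.4%, medians 0.08 and 0.08). With the trend on span subtracted from the brightest probe sets, 6 of the 10 stayed lower in both arrays. ATM turned higher in both (0.28 and 0.04), and ATR, TP53BP1 and CHEK2 had mixed signs. The trend was not subtracted from other probe sets, such as 212672_at of ATM. What part span has in these differences was not tested.

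**Figure D3:**
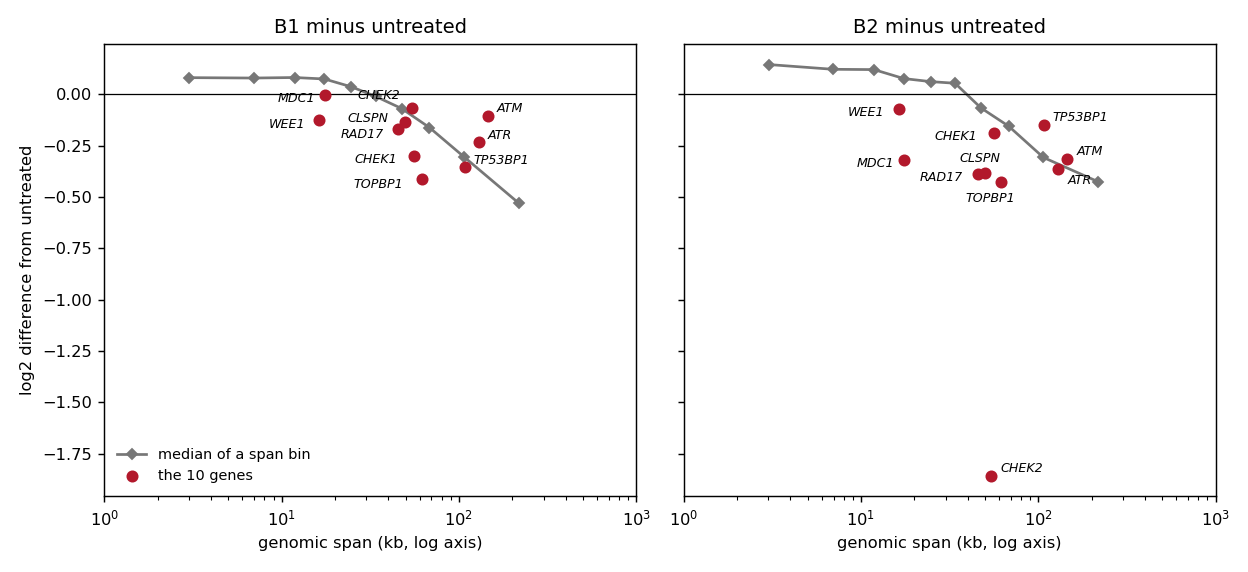
Log2 difference from untreated in B1 (left) and B2 (right) against genomic span in kb on a log axis, for the 10 genes (red) and the median of each of the 10 span bins (grey diamonds at the median span). The grey line drops to -0.53 in B1 and -0.43 in B2 in the longest bin, and TOPBP1 lies below it in both panels.

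Of 52 other genes of the pathway, 49 were measured, 23 of them lower in both arrays, 8 higher and 18 mixed. Beside these counts and those of each list below, 27.4% of all genes were lower in both arrays and 39.2% higher. Among genes at a mean log2 value of 6 or more, 34.2% were lower and 29.8% higher. None of the 49 passed limma's test (0 of 49), and none was 2-fold from untreated in both arrays. At an unadjusted limma p under 0.05 were 2 of the 49, beside 2.86% of all genes. The median differences of the 49 were -0.09 in B1 and -0.12 in B2. ATRIP and MCPH1 were among those not measured here by a probe set with 1 gene symbol.

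Sensors and clamp loading genes were mostly near the untreated level, with 7 of 15 lower and 4 higher (medians -0.02 and -0.10). RAD50, of the break-binding MRN complex, read 376 untreated, 298 in B1 and 244 in B2. RFC3, a clamp loader subunit, read 1671, 1375 and 1120, but its 3 probe sets disagreed and averaged 0.04. RHNO1, a 9-1-1 partner, differed by -0.18 and -0.89, with 1 of its 2 probe sets lower and 1 higher. ETAA1, an activator of ATR that works beside TOPBP1, went the other way, with 115 untreated, 160 in B1 and 167 in B2 (log2 differences 0.48 and 0.54). The activators TOPBP1 and ETAA1 thus lay on opposite sides of the untreated array, each on 1 probe set, and this contrast was not tested.

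Chromatin and fork mediators had 9 of 13 genes lower in both arrays and 1 higher (medians -0.13 and -0.33). BRCA1, which works in resection and recombination, read 459 untreated, 351 in B1 and 312 in B2. RIF1, a partner of TP53BP1, read 453, 371 and 316 and was lower on 7 of its 9 probe sets. UIMC1, which brings BRCA1 to ubiquitin at breaks, read 151, 115 and 110. SHLD2, of the shieldin complex that acts after RIF1, read 1047, 775 and 835. These 4 were named for the largest mean differences among genes of the same direction in both arrays. That choice puts the untreated array at 1 end in each of them. Their spans were 97.0 to 126 kb.

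Effectors had 1 of 11 genes lower in both arrays, 2 higher and 8 mixed (medians -0.07 and 0.06). PKMYT1, the membrane-bound relative of WEE1 that also inhibits CDK1, read 241 untreated, 299 in B1 and 433 in B2 (0.31 and 0.85). CDK2 read 596, 680 and 989. PRKDC, the catalytic kinase of end joining and a relative of ATM and ATR, read 1538, 1351 and 1066 and was lower on 3 of 3 probe sets. On their brightest probe sets WEE1 and PKMYT1, which share the task of inhibiting CDK1, lay on opposite sides of the untreated array.

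Brakes and turnover genes held the largest mean differences among these 49 genes, with 6 of 10 lower and 1 higher (medians -0.19 and -0.35). FBXW11 and BTRC encode the F-box proteins of the ligase that marks WEE1, claspin and CDC25A for degradation. FBXW11 read 686 untreated, 376 in B1 and 260 in B2, lower on 2 of 2 probe sets (mean log2 difference -1.13, SE 0.32, limma adjusted p = 0.97). BTRC read 91.1, 45.6 and 56.5 on its brightest probe set, and 4 of its 5 were lower in both (mean -0.84 on the brightest, -0.31 over all 5). The deubiquitinases USP7 (1013, 739 and 778) and USP28 (72.0, 61.1 and 47.3), which stabilise checkpoint proteins, were lower on 2 of 4 and 2 of 3 probe sets. FBXW11 spanned 145 kb, BTRC 203 kb, USP7 71.8 kb and USP28 77.7 kb. Of the named genes of the other lists, RAD50 (89.4 kb), RFC3 (159 kb), PRKDC (187 kb) and RHNO1 (13.3 kb) were lower. ETAA1 (14.8 kb), PKMYT1 (7.64 kb) and CDK2 (5.96 kb) were higher. What part span has in these values was not tested.

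**Figure D4:**
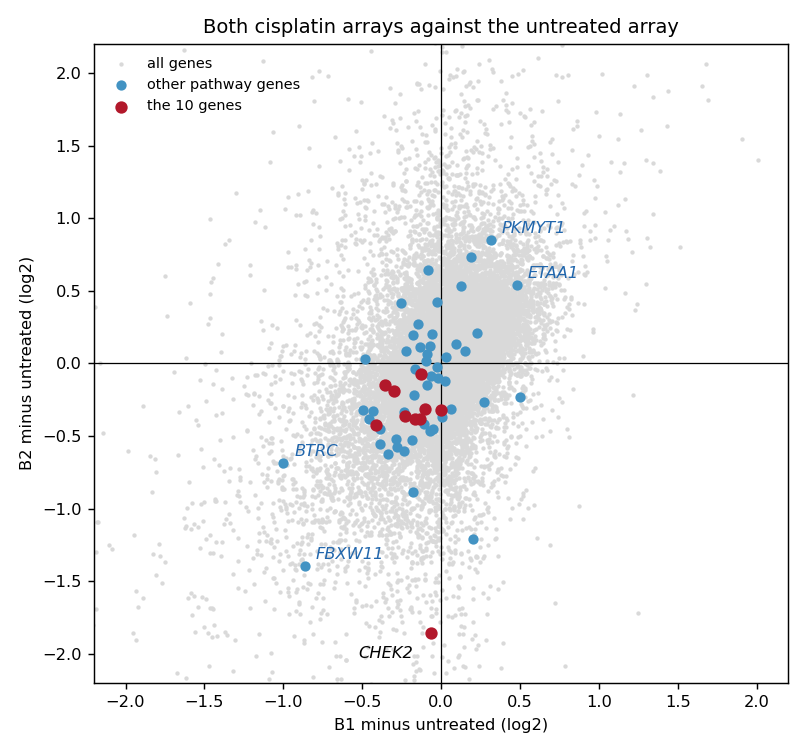
Log2 difference from untreated in B1 (horizontal) and B2 (vertical) for all genes (grey), the 49 other pathway genes (blue) and the 10 genes (red), with 196 genes outside the frame. The 10 lie at or below 0 on both axes, CHEK2 far down on the B2 axis, and BTRC and FBXW11 are the lowest blue points on the B1 axis. With quantile normalization CHEK2 and MDC1, and with median centring MDC1, pass 0 on the B1 axis.

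Many checkpoint genes vary over the cell cycle, so phase markers are given beside them. Of 16 S phase genes 12 were higher in both arrays and 1 lower (medians 0.18 and 0.20), and of 16 G2/M genes 10 were lower and 0 higher (medians -0.31 and -0.21). Beside these and the squamous counts below, 39.2% of all genes were higher in both arrays and 27.4% lower. Most S phase genes spanned less than the median of all genes (24.7 kb), but RRM2 (88.4 kb) and MCM5 (54.9 kb), also higher, did not. Most G2/M genes spanned more, but AURKA (22.8 kb) and UBE2C (4.31 kb), also lower, did not. What part span has in these counts was not tested. The S phase genes summed to an intensity of 22706 untreated, 26281 in B1 and 24483 in B2, and the G2/M genes to 15960, 13054 and 14429. Their part in the checkpoint values was not tested. Of 10 squamous markers 7 were measured, with a summed intensity of 16070 to 28034, highest in B2. Of these 2 were higher in both arrays, 1 lower and 4 mixed. KRT5 read 1217, 1345 and 4251, KRT14 278, 276 and 2372, and SOX2 5656, 2416 and 5308. Fibroblast (325 to 479), leukocyte (132 to 147) and endothelial markers (131 to 156) summed to little, and 14 of these 20 were below the median of all probe sets in the untreated array. In RNA of a whole culture, fewer cells of a type and less RNA per cell cannot be told apart.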

How the data were processed

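RNA of 1 untreated and 2 cisplatin-treated KYSE140 samples was measured on 3 arrays with 54675 probe sets. The values deposited by the authors are intensities on a linear scale (3.03 to 19645, medians 34.8, 35.9 and 35.6), made with RMA, per the submitters' processing notes. The RMA version is not given in the sources used here, nor is a detection call, so dim and undetected probe sets look alike. The number of arrays limits the precision.

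Values were taken to log2 without a pseudocount. Leaving out 62 control probe sets, 41091 had 1 gene symbol, updated by gene number to GRCh38.p14 (19735 of 19775 genes matched), and 1801 had several. A gene was represented by its probe set of highest mean log2 value. limma 3.58.1 (R 4.3.3, lmFit and eBayes) compared cisplatin with untreated over all genes, with Benjamini-Hochberg adjustment, 1 residual and 2.01 prior degrees of freedom, assuming that the lone untreated array varies like the pair. The fit was tested on simulated data, where it recovered the size of known changes on average but called none of them. Genomic spans and sequences came from RefSeq, and the span trend from lowess in statsmodels 0.14.6.

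The members, lists and tests were chosen with earlier results of these data known. All 10 members are named, and of each pathway list up to 4 genes with the largest mean difference among those of the same direction in both arrays. Neighbours were starts on the other strand within 1000 bases. Alternatives covered probe set choice, a filter at a mean log2 of 6, normalization, the variance prior, the span trend, size thresholds and each cisplatin array alone. Paralogous or overlapping transcripts were not separated.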

Additional observations from a re-analysis of the deposited data

How the results depend on the processing

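The number of genes passing limma was 0 in every fit, with the mean of probe sets, with plain _at probe sets, above a mean log2 of 6, with both normalizations, with a variance trend and with every probe set fitted, but the design could call none in simulated data, so this says nothing about stability. The number of the 10 genes lower in both arrays ran from 6 to 10 over the alternatives. It was 6 with the span trend removed and 7 with the mean of all probe sets, where ATM (0.00), MDC1 (0.03) and CLSPN (0.16) were not lower in B1. It was 8 with quantile normalization (CHEK2 at 0.04 and MDC1 at 0.09 in B1), 9 with median centring (MDC1 at 0.00 in B1) and 9 above the mean log2 of 6, where ATM was left out. Of 89 values of single genes under 9 alternatives 86 kept the sign of their mean difference and 3 turned. The 3 were all brightest probe sets with the span trend removed: ATM to 0.16, ATR to 0.046 and TP53BP1 to 0.045. Many of the 86 could not have turned. The variance prior and the filter leave a difference as it was, and so does the plain _at choice for most of the 10. Each cisplatin array alone was already below untreated for all 10 genes. The count of 86 is thus no measure of stability. Past the size rule lay 0 of the 10 genes, but 1 (TOPBP1) at 1.2-fold on the brightest probe sets. With each cisplatin array alone it was 0 to 1 (CHEK2 in B2). Of the other pathway genes 14 to 20 were higher and 29 to 35 lower with each cisplatin array alone, against 8 and 23 when both had to agree, since that rule is stricter. With 1 cisplatin array there is no test. No paired analysis was possible because the untreated group has 1 array. Dim probe sets limit ATM most.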

Other observations

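Starts on the opposite strand within 1000 bases were found for 7 of the 9 genes with a promoter window, and 5 of these had a neighbour on the arrays. Beside HSCB and NPAT, given above, AK6, an adenylate kinase gene whose start overlaps that of RAD17 by a few bases, read 901 untreated, 1056 in B1 and 928 in B2. AK6 was therefore not below untreated in either cisplatin array, while RAD17 was lower in both. TF (transferrin), with an annotated start 57 bases from that of TOPBP1, read 36.9, 53.9 and 53.6. MAP1A, 314 bases from TP53BP1, read 20.0, 24.9 and 20.6. Both were near the median of all probe sets or under it. Whether the probe sets read RNA from these starts was not tested. Of the 5 measured neighbours NPAT alone was lower in both arrays on its brightest probe set, as were 27.4% of all genes. NPAT spanned 65.4 kb, HSCB 15.5 kb, AK6 18.8 kb, MAP1A 20.7 kb and TF 135 kb. What part span has in these values was not tested. The differences between the neighbours were not tested.

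FBXO6, which encodes an F-box protein that acts on CHEK1, was chosen here after its values were seen. It read 69.0 untreated, 79.5 in B1 and 29.8 in B2, so that like CHEK2 it was low in B2 only.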
